A study of Mus musculus with 250 samples.

Results

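The 5 genes described here carry glutamate into astrocytes and turn it over inside them: Slc1a2, Slc1a3, Glul, Slc38a3 and Glud1. They were chosen by name, as the astrocytic core of glutamate clearance and the glutamine cycle, and not by a measured value. They are 5 of the 24490 gene rows of the count table, of which 16367 had at least 1 read. The table holds full-length Smart-seq2 transcriptomes of 250 single cells from the brains of adult C57BL/6 mice, about 3 months old per the series' design text, and every cell is titled an astrocyte. All cells share the genotype SM22-Cre;Rosa26-stop-tdTomato: the SM22 promoter, that of a smooth muscle gene, drives Cre, and Cre removes a stop before the red fluorescent protein tdTomato. The cells were sorted by fluorescence with a gate not given in the sources used here, no animal or treatment is named, so the cells form 1 group without known biological replicates. Column names carry 1 of 2 prefixes, Brain.VSMC2 for 162 cells and Brain.VSMC3 for 88 cells, called plate 2 and plate 3 here.

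Astrocytes clear glutamate from the extracellular space with sodium-coupled carriers, of which Slc1a2 and Slc1a3 encode the main glial forms. Inside the cell, glutamine synthetase (Glul) joins glutamate and ammonia to glutamine, and the amino acid carrier encoded by Slc38a3 moves glutamine out towards neurons, which make transmitter from it again. Glutamate dehydrogenase (Glud1) instead feeds glutamate into the citric acid cycle in mitochondria.

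The cells held 72773548 counted reads, with a median of 282290 per cell and a range of 102161 to 564958. The median was 256247 reads on plate 2 and 391072 on plate 3. Levels are CPM, a gene's reads per 1000000 counted reads of the cell, and a gene was called detected at 10 CPM or more. Of 10 astrocyte markers, 6 to 10 were detected in every cell, with a median of 9. A set of 54 of the 250 cells (21.6%, exact 95% interval 16.7% to 27.2%, 38 cells on plate 2 and 16 on plate 3) held 3 or more markers of another type, most often of oligodendrocytes (32 cells) and mural cells (14 cells). Within a plate, rho of a member with the summed level of a list of another type lay between -0.291 and 0.187. The lowest was Slc1a3 with the neuron list on plate 3, against -0.162 on plate 2. The part of other cell types in the results was not tested beyond leaving those 54 cells out. Cells are not replicates, so no test or p-value was computed. Each spread is the SD between cells, and each interval covers counting error only.

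All 5 genes were detected in more than 90% of the cells, whereas 155 of the 16367 genes with reads (0.947%) reached that share and 969 (5.92%) reached 50%. Slc1a2 was detected in all 250 cells, Slc1a3 in 248, Glul in 247, Glud1 in 239 and Slc38a3 in 234. All 5 were detected together in 221 cells, 4 of them in 26 cells and 3 of them in 3 cells, and no cell had fewer.

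Slc1a2, the carrier that does most glutamate uptake in the forebrain, averaged 4385 ± 2310 CPM (SD, n = 250 cells). Its lowest cell stood at 547 CPM, the median at 4135 and the highest at 23295. The mean was 4095 ± 1864 CPM on plate 2 and 4918 ± 2898 on plate 3, and the ranges of the plates overlapped. The highest cell, on plate 3, stood apart, with the next at 11929 CPM. That cell also held 11828 CPM of Slc1a3 and 2644 CPM of Glud1, and it carried 2.56% of all Slc1a2 reads. Without it the mean was 4309 CPM.

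Slc1a3, the carrier known as GLAST, averaged 4258 ± 2729 CPM (SD, n = 250 cells). Its lowest cell had no read, the median was 3790 CPM and the highest cell held 15791. The plates again overlapped, at 4462 ± 2782 CPM on plate 2 and 3883 ± 2604 on plate 3. The 2 cells in which Slc1a3 was not detected were not short of the other carrier, since both held at least 6651 CPM of Slc1a2.

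**Figure D1:**
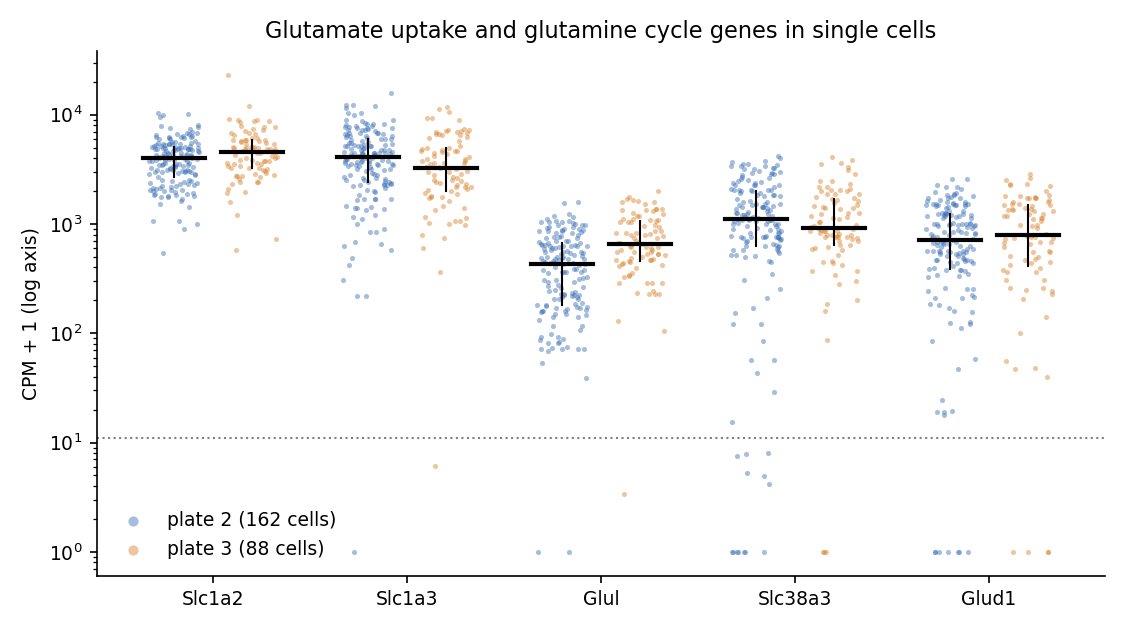
Level of each of the 5 genes in each of the 250 cells (points, CPM + 1 on a log axis), split by plate. Slc1a2 has no cell near the bottom of the axis, whereas Slc38a3 and Glud1 have groups of cells at 0 reads (10 and 11 cells) below otherwise continuous distributions.

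Glul, the enzyme that makes glutamine, had the lowest mean of the 5 genes in CPM, 575 ± 401 (SD, n = 250 cells). It ran from no read in 2 cells through a median of 499 CPM to 2013 CPM. The mean was 469 ± 332 CPM on plate 2 and 771 ± 442 on plate 3, with overlapping ranges. Slc38a3, the glutamine exporter, averaged 1306 ± 984 CPM, with a median of 1067 and a highest cell of 4215. Its means were 1344 ± 1024 CPM on plate 2 and 1236 ± 906 on plate 3. It was detected in 93.6% of the cells (89.8% to 96.3%), the lowest share of the 5 genes.

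Glud1 averaged 889 ± 638 CPM (SD, n = 250 cells), with a median of 762 and a highest cell of 2879. Its means were 839 ± 596 CPM on plate 2 and 982 ± 703 on plate 3. The 11 cells that lacked it all had 0 Glud1 reads. They were not the shallowest cells, with 162000 to 451198 reads in all, where 3 reads, the limit that a count of 0 allows, equal 6.65 to 18.5 CPM. The 16 cells below 10 CPM of Slc38a3 likewise had 140745 to 496912 reads, where 3 reads equal 6.04 to 21.3 CPM. Of these cells, 10 had 0 Slc38a3 reads, and the limit for a count of 0 does not apply to the rest. In those 16 cells the median levels of the carriers were 4841 CPM for Slc1a2 and 4893 CPM for Slc1a3, and the lowest were 1837 and 904 CPM, so both carriers were detected in every cell where the exporter was not.

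Levels of different genes can be set side by side only per length. Divided by the annotated exon length (the union of all exons), Slc1a3 came first at 499 CPM per kilobase, followed by Slc1a2 at 334, Slc38a3 at 248, Glud1 at 211 and Glul at 173. Among 15566 genes with a read and an annotated length these were places 48, 74, 97, 118 and 152. With the length of the longest transcript the values were 960 for Slc1a3, 415 for Slc38a3, 378 for Slc1a2, 262 for Glud1 and 206 for Glul, so Slc38a3 and Slc1a2 changed places. All 4 neighbouring pairs in either order differed by less than the larger of their SDs between cells. Which transcript the cells used was not analysed here.

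The genes lie on 5 chromosomes of build GRCm38 (GENCODE M21), the assembly that mm10 names. Glul is on chromosome 1 at 153899944 to 153909723 (plus strand), Slc1a2 on chromosome 2 at 102658659 to 102790784 (plus), Slc38a3 on chromosome 9 at 107650634 to 107669530 (minus), Glud1 on chromosome 14 at 34310727 to 34345265 (plus) and Slc1a3 on chromosome 15 at 8634124 to 8710764 (minus). The first bases of Glul overlap Teddm2 on the other strand, and Slc1a2 overlaps the antisense gene Gm13872. Slc1a3 overlaps Gm37310 on the same strand, and Glud1 has a processed pseudogene, Glud-ps. None of these partners has a row in the count table. Whether the counting used strand is not stated there or in the labels. Reads of such partners thus could not be told apart from those of the members. Mir8114, a microRNA gene that overlaps Glul, has a row with 0 reads.

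The balance of the 2 uptake carriers differed widely from cell to cell. Per exon length, Slc1a2 made up a median of 41.6% of the sum of both carriers, with the central 80% of cells between 19.1% and 69.2%. Slc1a3 was the higher carrier in 163 cells and Slc1a2 in 87. By the longest transcript Slc1a3 was higher in 209 cells, but by plain reads Slc1a2 was higher in 137 of the 250, so which carrier leads depends on the length used. The median share of Slc1a2 was 37.0% on plate 2 and 48.4% on plate 3.

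Spread was also set against that of genes of like level, as the squared CV over a trend fitted across 4739 genes on each plate. Genes with 10% or more of their reads in 1 cell were left out beforehand, a filter that itself acts on spread. Slc1a3 stood well above the trend, at 1.76 times its value on plate 2 and 1.84 times on plate 3, which placed it 19 among the 4739 genes. Slc38a3 was modestly above (1.24 and 1.11 times). Slc1a2 lay at 0.892 times the trend on plate 2 and 1.62 times on plate 3, the plate that holds its highest cell. Glud1 (0.777 and 0.911 times) and Glul (0.459 and 0.489 times) lay below it on both plates, and Glul was among the least variable genes for its level, at place 4482 of 4739.

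Between the plates, Glul differed most. Its mean on plate 3 was 1.65-fold that on plate 2 (log2 ratio 0.72), where 679 of 6381 genes tested (10.6%) were at least 1.5-fold higher on plate 3 and 5 of the 155 genes detected in at least 90% of cells (3.23%) were. In the lower direction, 727 genes (11.4%) and 1 of the 155 (0.645%) were past 1.5-fold. The other 4 members stayed within 1.5-fold, with log2 ratios of 0.26 for Slc1a2, 0.23 for Glud1, -0.12 for Slc38a3 and -0.20 for Slc1a3. The plates also differed in depth, and no animal is named, so plate, depth and animal cannot be told apart here.

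The 5 genes varied little with one another. Spearman rho over cells was computed within each plate for the 10 pairs. None reached 0.2 in size on both plates, 3 reached 0.1 with the same sign on both, and 9 of 10 had the same sign on both. Over all pairs of the 3703 genes detected in at least 20% of the cells of each plate, 4.02% reached 0.1 and 50.7% had the same sign, while 0.0434% were at or above 0.2 and 0.0138% at or below -0.2 on both plates. Over pairs of genes detected in at least 90% of cells the same 4 shares were 12.4%, 58.1%, 1.49% and 0.553%. The median of the 10 pairs, taken over the mean of both plates, was 0.0627, against 0.0146 for the pairs of widely detected genes. On plate 2 alone it was 0.00669, below the 0.0125 of those pairs, and on plate 3 it was 0.132 against 0.0184.

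Glud1 varied weakly with both uptake carriers. The rho of Slc1a3 and Glud1 was 0.128 on plate 2 and 0.231 on plate 3, and that of Slc1a2 and Glud1 was 0.128 and 0.191. Among the 3702 other genes, Slc1a3 held place 15 from the top for Glud1, and Glud1 held place 93 for Slc1a3. The first pair's value on plate 2 was 0.0902 in the 209 cells with at least 200000 reads, and the second pair's was 0.0851 without the 54 cells that held markers of another type and 0.0948 after thinning to 50000 reads. The carriers themselves did not vary together on plate 2 (rho 0.00125) and did so weakly on plate 3 (0.167).

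Slc1a3 and Slc38a3, the uptake carrier and the glutamine exporter, varied in opposite directions. Their rho was -0.216 on plate 2 and -0.115 on plate 3. Slc1a3 held place 22 from the bottom among the 3702 genes for Slc38a3, and Slc38a3 held place 61 for Slc1a3. Leaving out the 54 cells with markers of another type made their rho -0.275 and -0.209. On plate 3 it was -0.0942 without the cell of highest Slc1a2, and the Pearson r of log2(CPM + 1) was -0.155 and -0.0802. Glul and Slc38a3, which make and export glutamine in turn, had rho of 0.0683 and 0.0962. Slc38a3 and Glud1 were the 1 pair with opposite signs, at -0.124 on plate 2 and 0.210 on plate 3.

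**Figure D2:**
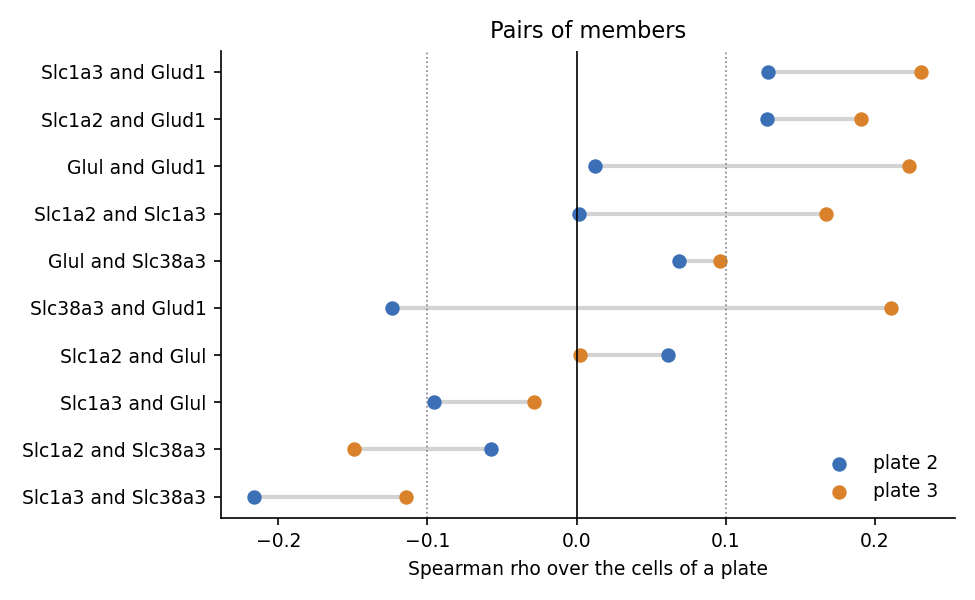
Spearman rho over cells for the 10 pairs of the 5 genes, on plate 2 (162 cells) and plate 3 (88 cells), with 1 row per pair. No pair lies beyond 0.2 in size on both plates, Slc1a3 and Slc38a3 lie on the negative side on both, and Slc38a3 and Glud1 change sign.

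Each member was next compared with the 3702 other eligible genes, and a gene was said to vary with it when rho was at least 0.2 in size with the same sign on both plates. Slc1a3 had 25 such genes with positive rho (0.675%) and 9 with negative rho (0.243%). Slc38a3 had 16 (0.432%) and 3 (0.081%). Glul had 3 (0.081%) and 2 (0.054%), Glud1 had 2 (0.054%) and 0 (0.0%), and Slc1a2 had 1 (0.027%) and 0 (0.0%). Over the 155 genes detected in at least 90% of cells, the median number in both directions was 4, with quartiles of 2 and 8. Slc1a3 took place 10 among them, Slc38a3 place 19, Glul 61, Glud1 93 and Slc1a2 122, so the 2 carriers of uptake lay at opposite ends. The cells of both plates may come from the same animals, so the plates are not independent samples.

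The gene most like Slc1a3 was Itih3, a hyaluronan-binding plasma protein chain, with rho of 0.435 on plate 2 and 0.515 on plate 3. The homeobox factor Nkx6-2 (0.386 and 0.377), the lipid carrier Apoe (0.359 and 0.496), the matrix protein Sparcl1 (0.349 and 0.337), the imprinted membrane protein Nnat (0.340 and 0.376) and the Notch target Hes5 (0.284 and 0.455) followed. Of the 12 genes fixed as markers of regional astrocyte types, 6 were eligible, and 3 of these (Itih3, Sparc and Agt) were among the 25. Slc6a11 (0.193 and 0.139) and Mfge8 (0.145 and 0.125) were positive below the threshold, and Slc6a9 was negative on both plates (-0.154 and -0.0326). The median rho of the 6 with Slc1a3 was 0.224, against 0.0102 over all 3702 genes. This list was chosen with earlier results of these data known, so its median is a description only. On the negative side stood Mt1, a metallothionein (-0.306 and -0.308), Malat1, a nuclear RNA (-0.300 and -0.394), Sod3, the extracellular superoxide dismutase (-0.265 and -0.325), and Igfbp2 (-0.399 and -0.212).

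The gene most like Slc38a3 was Gpr37l1, a glial G protein-coupled receptor, with rho of 0.424 on plate 2 and 0.397 on plate 3. The serine protease Htra1 (0.351 and 0.427), Igfbp2, which binds insulin-like growth factors (0.343 and 0.466), and the potassium channel Kcnk1 (0.303 and 0.249) were also among the 16 genes. Slc7a10, a carrier of small neutral amino acids, was another (0.232 and 0.376). The 3 genes with negative rho were Nnat (-0.466 and -0.387), the prohormone-processing enzyme Cpe (-0.268 and -0.236) and Sparcl1 (-0.250 and -0.225). Nnat had a median of 678 CPM over all 250 cells, and in the 16 cells below 10 CPM of Slc38a3 its lowest value was 207 CPM and its median 2637. Nnat was above its own overall median in 14 of these 16 cells, a count chosen after the values were seen. Of the 16 cells, 13 were on plate 2 and 3 on plate 3. Mean Nnat was 1562 CPM on plate 2 and 792 on plate 3, which the overall median does not allow for.

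Genes past the threshold with both Slc1a3 and Slc38a3 had opposite signs with them. Of the 9 genes negative with Slc1a3, 4 (44.4%) were among the 16 positive with Slc38a3 (25%), with Igfbp2, Kcnk1 and Sod3 among them. Of the 25 genes positive with Slc1a3, 2 (8%) were among the 3 negative with Slc38a3 (66.7%), namely Nnat and Sparcl1. No gene was past 0.2 with both in the same direction. Counted by sign alone, 21 of the 25 genes positive with Slc1a3 had negative rho with Slc38a3 on both plates, and 6 of the 9 negative with Slc1a3 had positive rho. Over all 3702 genes, 16.9% had negative and 39.0% had positive rho with Slc38a3 on both plates. Of the 16 genes positive with Slc38a3, 11 had negative rho with Slc1a3 on both plates. With Slc1a3, 24.3% of all 3702 genes had negative and 30.7% had positive rho on both plates. Of the 3 negative with Slc38a3, 2 had positive rho with Slc1a3 on both plates and 1, Cpe, had negative rho (-0.0162 and -0.101). These counts are a description only: Slc1a3 and Slc38a3 had negative rho with each other in the same cells, so choosing genes by their rho with 1 of them already favours the opposite sign with the other. Under each of the 6 other settings tried, 1 or more genes were called in opposite directions and 0 in the same direction. The rho of Slc38a3 with the number of genes detected per cell was 0.235 and 0.25, and that of Slc1a3 was -0.00490 and 0.267. With total reads and genes detected held constant, 17 and 13 genes varied with Slc1a3 and 9 and 5 with Slc38a3.

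**Figure D3:**
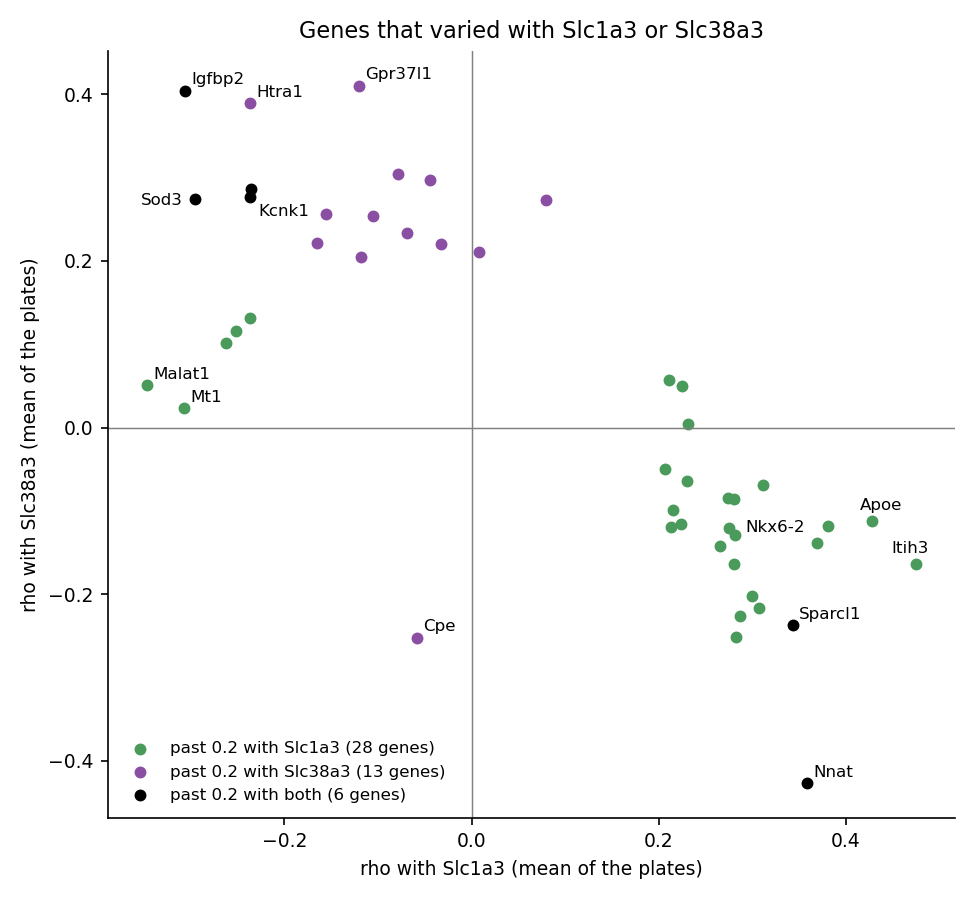
Each point is 1 of the 47 genes that varied with Slc1a3 (green), Slc38a3 (purple) or both (black), placed by its rho with Slc1a3 (x axis) and with Slc38a3 (y axis), each the mean of the plates. All 6 genes called with both lie in the upper left or lower right of the plot, where the signs are opposite. The axes are the values that chose the genes.

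Glul varied with 5 genes, close to the median of 4 for widely detected genes, and those of positive rho were 0610012G03Rik, Mt1 and S1pr1. The rho with Mt1 was 0.341 on plate 2 and 0.226 on plate 3, and rho with the sphingosine phosphate receptor S1pr1 was 0.231 and 0.210. A related metallothionein, Mt3, missed the threshold on plate 2 (0.191 and 0.274). The matrix protein Sparc (-0.209 and -0.237) and the splicing factor Mbnl2 (-0.232 and -0.214) were negative. Glul is known as a target of glucocorticoid hormones in glia, and metallothioneins also respond to them. Of 14 genes fixed as a glucocorticoid response list, 7 were eligible and 1, Mt1, passed the threshold with Glul. The median rho of the 7 was 0.0905, against 0.00325 over all 3702 genes. This list too was chosen with earlier results of these data known. Of the 7, 5 had positive rho on both plates, as did 27.7% of the 3702. Klf9 (0.112 and 0.273) and Per1 (0.176 and 0.118), both known glucocorticoid targets, were positive on both plates below the threshold. Tsc22d3 was at 0.0199 and 0.0897 and Hif3a at 0.0365 and 0.00375. Mt2 changed sign (0.184 and -0.00247), and Ddit4 was negative on both plates (-0.0252 and -0.101).

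Because Glul and Mt1 varied together, the 250 bases before their start sites are shown, a choice made after these values were seen. The motif TGCNCNC was searched on both strands and is in capitals. It is a looser form of the metal response element core, TGCRCNC, in which R is A or G. TGCNCNC occurs 2 times before Glul, both on the reverse strand, and 1 time before Mt1, but 44.4% of 32851 mouse promoters of the same length hold it. Of the stretches before Glul, GCGGGCA reads TGCCCGC on the reverse strand, which TGCRCNC does not allow. The glucocorticoid response element was searched as AGAACA and TGTTCT set 3 bases apart, which reads the same on both strands. It had no match in either window, but only 3 of the 32851 held it, so its absence does not set the 2 genes apart. A match is a description of letters and not a binding site. Only the 250 bases before 1 annotated start per gene were searched, so the counts do not rank the 2 promoters. Both sequences are RefSeq promoters of GRCm38.p6 on the plus strand, at chr1:153899679-153899928 for Glul and chr8:94178839-94179088 for Mt1.
Glul: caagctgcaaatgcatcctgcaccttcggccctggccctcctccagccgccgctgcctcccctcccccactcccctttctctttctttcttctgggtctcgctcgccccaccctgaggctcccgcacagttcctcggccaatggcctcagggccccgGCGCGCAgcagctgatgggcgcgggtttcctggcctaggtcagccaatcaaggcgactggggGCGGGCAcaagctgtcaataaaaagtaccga
Mt1: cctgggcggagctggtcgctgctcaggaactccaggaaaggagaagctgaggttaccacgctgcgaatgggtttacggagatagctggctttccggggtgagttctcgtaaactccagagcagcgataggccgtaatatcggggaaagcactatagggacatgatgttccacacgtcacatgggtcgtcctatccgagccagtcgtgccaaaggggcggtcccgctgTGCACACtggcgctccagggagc

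Slc1a2 and Glud1 had hardly any gene that varied with them on both plates. For Slc1a2 the 1 gene was Ptn, the secreted growth factor pleiotrophin, with rho of 0.252 and 0.254. Reep3, a protein of the endoplasmic reticulum, was just outside at 0.256 and 0.199. For Glud1 the genes were the zinc carrier Slc39a7 (0.240 and 0.203) and the chaperone Hspa8 (0.203 and 0.239). Across all 3702 genes, the correlation between a member's rho on plate 2 and on plate 3 was 0.240 for Slc1a3, 0.157 for Slc38a3, 0.0612 for Glul, 0.0268 for Glud1 and 0.0237 for Slc1a2, where the median of the 155 widely detected genes was 0.0532. The values of Slc1a2 and Glud1 lay below that median but within the quartiles of the 155 genes, 0.0231 and 0.0916. Without the 54 cells that held markers of another type, Slc1a2 had 7 genes with positive rho and Slc38a3 had 28.

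**Figure D4:**
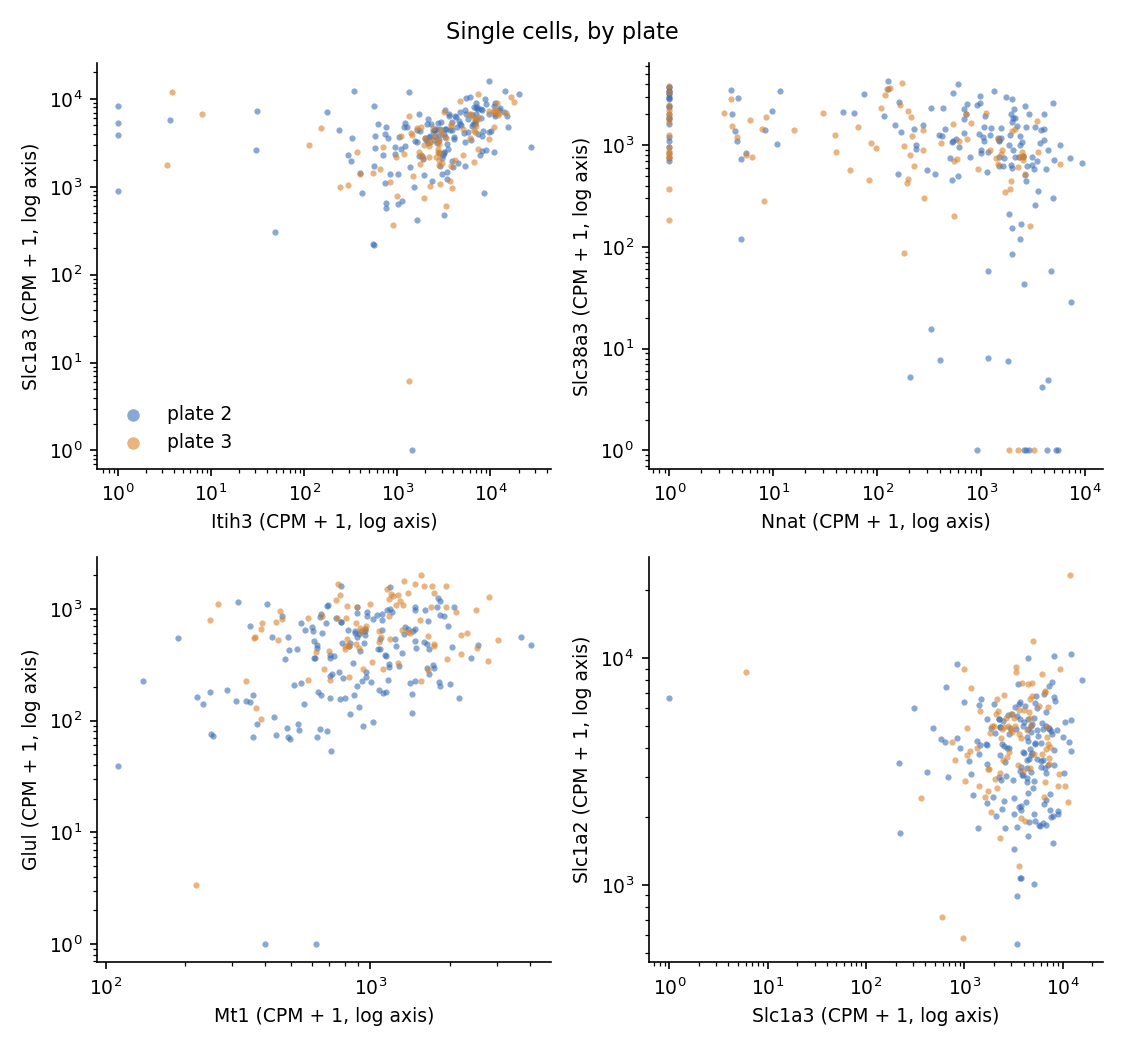
Single cells of plate 2 (blue) and plate 3 (orange), with levels as CPM + 1 on log axes, for Slc1a3 against Itih3, Slc38a3 against Nnat, Glul against Mt1 and Slc1a2 against Slc1a3. The 16 cells below 10 CPM of Slc38a3 lie at 207 CPM of Nnat or more, while the cloud of Slc1a2 against Slc1a3 has little slope.

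The rest of the cycle was read from a list of 26 other genes of glutamate and glutamine handling, 6 of which were detected in at least 50% of cells. These were the amino acid carrier heavy chain Slc3a2 (1165 ± 682 CPM, 96.4% of cells), the mitochondrial glutamate carrier Slc25a18 (819 ± 593 CPM, 90.4%), the neutral amino acid carrier Slc1a4 (682 ± 669 CPM, 79.2%), pyruvate carboxylase Pcx (266 ± 365 CPM, 64%), the cystine and glutamate exchanger Slc7a11 (444 ± 608 CPM, 63.2%) and ornithine aminotransferase Oat (362 ± 453 CPM, 62.8%). Per kilobase of exons, Slc25a18 stood at 429 CPM, against 211 for Glud1, the mitochondrial enzyme of the same substrate. None of the 12 eligible genes of the list passed 0.2 on both plates with any member. Between 0.0% and 0.675% of the 3702 genes passed per member and direction, so this does not set the list apart. Their median rho was 0.0827 with Slc1a3, 0.0629 with Slc38a3, 0.0447 with Glud1, 0.0282 with Slc1a2 and 0.00486 with Glul. Over all 3702 genes the medians were 0.0102, 0.0279, 0.00488, 0.00879 and 0.00325 in that order.

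Genes that break glutamine down or belong to neurons were sparse in the same cells. The liver-type glutaminase Gls2 was detected in 1 cell. Among the transaminases, which exchange glutamate and its keto acid, Gpt2 was detected in 81 cells, Gpt in 77, Got1 in 57 and Got2 in 22. The neuronal glutamate carrier Slc1a1 was detected in 3 cells and the vesicular glutamate carriers Slc17a6, Slc17a7 and Slc17a8 in 11, 1 and 1. The other glutamine carriers of the Slc38a3 family were also less widely detected, Slc38a1 in 62 cells, Slc38a2 in 18 and Slc38a5 in 1, against 234 for Slc38a3. At these levels a gene missing from a cell was not detectable at this depth and is not shown to be absent.

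**Figure D5:**
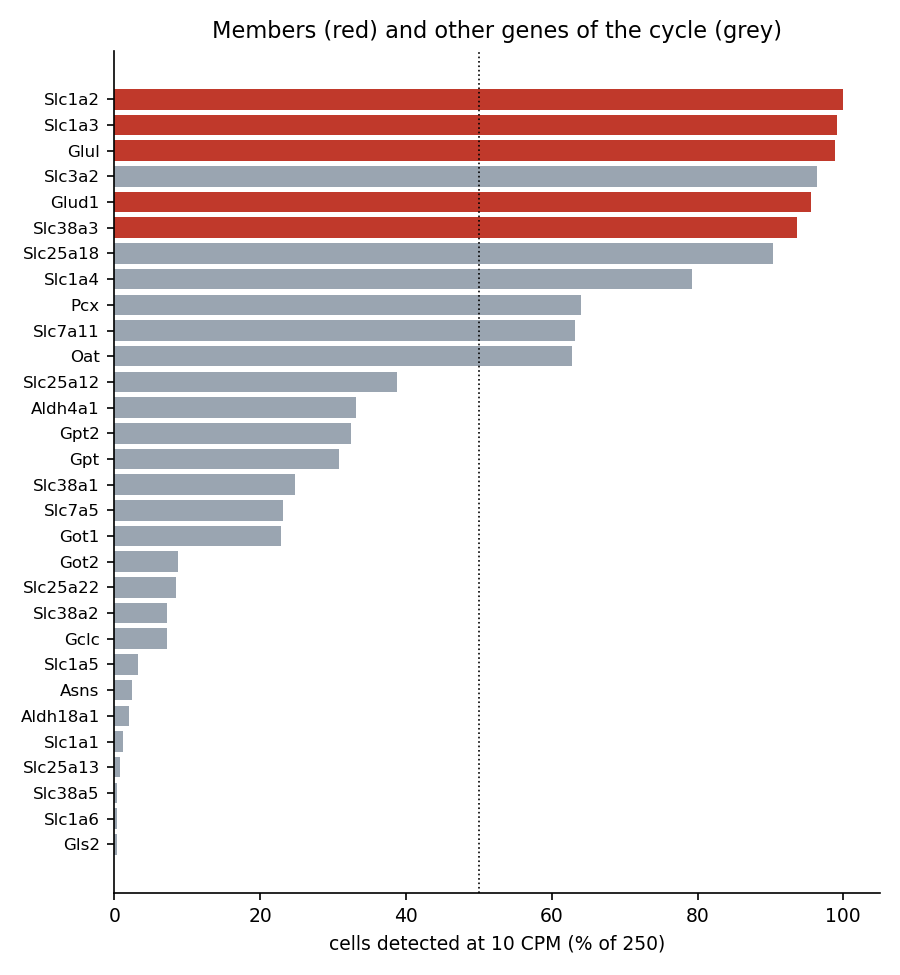
Percent of the 250 cells in which each member and 25 of the 26 other cycle genes were detected at 10 CPM or more. Members are red, other genes grey, and the dotted line marks 50%. The 5 members take 5 of the 6 highest places, with Slc3a2 (96.4%) among them, while Gls2 lies lowest, with Slc1a6 and Slc38a5, at 0.4%.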

How the data were processed

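Smart-seq2 makes full-length cDNA of polyadenylated RNA and has no molecular identifiers, so reads are not independent molecules. The deposited table holds whole-number read counts per gene and cell, unnormalized per the values themselves. The authors' other deposited table holds a score: all entries (100%) equal the count scaled to 500000 per cell and rounded, within 0.5, and it was not used further. STAR 2.4.2a and mm10 are named per the submitters' processing notes. For the counting tool, the annotation, strand and the choice of cells, nothing was given in the sources used here. Each column name matched 1 sample (0 unmatched), and no cell was removed. No doublet caller was run; cells with 3 or more markers of another type were left out as an alternative.

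CPM, shares of cells with exact Clopper-Pearson 95% intervals, the CV trend and Spearman rho within each plate were computed with Python 3.11.15. Packages were numpy 2.4.6, pandas 2.3.3, scipy 1.17.1 and statsmodels 0.14.6. Only the calling of genes by rho was checked on simulated counts. The planted correlations there were larger than most rho reported here, so weaker ones were not checked. The CV trend was a loess of span 0.1 over genes averaging 20 CPM or more on each plate. The CV trend and its ranking left out genes with 10% or more of their reads in 1 cell. Genes eligible for rho had to be detected in 20% of cells on each plate. Depth per cell, 102161 to 564958 reads, sets the limit that a count of 0 allows, 3 reads. The plates were not a condition of the study, and the cells were grouped by them only to repeat each measure.

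The members, the 7 gene lists (80 genes, all with a row) and the 9 marker lists were chosen with earlier results of these data known. The text names the members, genes of these lists, and for each member the 10 eligible genes of highest and the 5 of lowest rho, ranked by the least favourable of 4 values (plain and partial rho on each plate). Values of some genes that this rule names are not reported here. Promoter sequences came from RefSeq, in which 4 of the 5 members matched, the exception being Slc38a3. Alternatives were the detection threshold, gene length, scaling, depth, Pearson r, partial rho, thinning, the eligibility filter, the rho threshold and cells left out. Leaving out the cell of highest Slc1a2 was chosen after seeing the data.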

Additional observations from a re-analysis of the deposited data

How the results depend on the processing

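Mean levels and the Slc1a2 share of the carriers stayed within the SD between cells under every alternative run (25 and 4 values). That limit is wide, so staying within it does not show that these values are stable. The median Slc1a2 share was 41.6% per exon length, 29.6% by the longest transcript and 52.3% by plain reads. Which carrier led thus depended on the length used. Plate ratios were judged by a fixed fold limit instead, and all 20 values stayed within it. Of 25 detection values, 1 moved: Glud1 at a threshold of 50 CPM was detected in 92% of cells. Of 80 pair values, 1 moved: Slc1a2 and Glul had a mean rho of 0.101 with median-ratio size factors, against 0.0318. Slc1a3 and Glud1 had a mean of 0.179 as Spearman rho and 0.282 as Pearson r.

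The numbers of genes that varied with a member were less stable: 33 of 60 stayed within 1.5 times, 27 moved and 0 reversed, and the cause was not tested. At a threshold of 0.25 the numbers with positive and negative rho were 10 and 3 for Slc1a3, 4 and 1 for Slc38a3, 0 and 0 for Glul, and 0 positive for Glud1. With Pearson r they were 2 and 2 for Slc1a2, with 5 negative for Slc1a3, 1 positive for Glul, 9 positive for Slc38a3 and 1 positive for Glud1. With total reads and genes detected held constant they were 2 and 2 for Slc1a2, 9 and 5 for Slc38a3 and 1 positive for Glud1. After thinning to 50000 reads Slc1a2 had 3 positive and Glud1 had 0. Among genes detected in at least 50% of cells Glul had 1 negative. Without the 54 cells that held markers of another type (196 left), Slc1a2 had 7 positive, Glul 5 and 6, Slc38a3 28 and 5, and Glud1 4 positive. Of the 25 genes positive with Slc1a3, 17 remained without those cells, and of the 16 positive with Slc38a3, 13 remained. With Pearson r 16 of the 25 and 4 of the 16 remained, along with 3 of the 9 negative with Slc1a3, 1 of the 3 negative with Slc38a3, and 0 of the 1 of Slc1a2. Of the 2 genes of Glud1, 0 remained with Pearson r, with partial rho or after thinning.

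No paired analysis was possible because the cells form 1 group. With a median of 143 Glul reads and 208.5 Glud1 reads per cell, against 1080 for Slc1a2 and 1059 for Slc1a3, the relative counting error is larger for Glul and Glud1 than for the carriers.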

Other observations

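Genes that accompany uptake were unevenly present in the same 250 cells. Of 8 genes for the ion gradients behind uptake, 4 were detected in at least 50% of cells, among them the sodium pump subunit Atp1b2 (7714 ± 3077 CPM, SD), the bicarbonate carrier Slc4a4 (2289 ± 1354 CPM) and the potassium channel Kcnj10 (836 ± 755 CPM). Of 7 glutamate receptor genes, 4 reached 50% of cells: Gria1 (663 ± 683 CPM, 221 cells), Gria2 (525 ± 637 CPM, 193 cells), Grin2c (177 ± 234 CPM, 158 cells) and Grm3 (264 ± 395 CPM, 149 cells). Grm5, the metabotropic receptor of young astrocytes, was detected in 13 cells. None of the 4 receptor genes passed 0.2 on both plates with any of the 5 members. At most 0.675% of the 3702 eligible genes passed per member and direction, so this does not set them apart. Hepacam, a cell adhesion protein of astrocytes, was detected in 243 cells at 1153 ± 717 CPM.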
